A study of Rattus norvegicus with 12 samples.

Results

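Cd14 and Ikbke, a pair of genes that act at opposite ends of Toll-like receptor signalling, were followed in the lungs of silica-treated and saline-treated rats. They were 2 of the 1099 genes named in the held part of the study's supplementary list of array probes, and each was represented there by 1 probe. All lungs came from male Wistar rats. The silica groups received 1 mL of a 50 mg/mL silicon dioxide suspension into the trachea, a dose that the sample titles write as 50 mg/kg, and the saline groups received 1 mL of saline. There were 3 rats per group on each of day 14 and day 28, and total RNA of each rat was labelled with Cy3 and hybridised to a separate single-colour Agilent array, 12 in all. For the day 14 rats the title and the time point field gave 14 days, whereas the general protocol text mentioned only 28 days, and the title and time point were followed. The study's methods, written for day 28, took the rat as the experimental unit and chose 3 lungs of each group for the arrays on their histology.

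CD14 is a surface protein of monocytes, macrophages and neutrophils, anchored by a lipid tail, that takes up lipopolysaccharide and hands it to TLR4 and its partner MD-2. It also serves other Toll-like receptors, including those in endosomes. Ikbke encodes IKK epsilon, a kinase related to the I-kappa-B kinases that works with TBK1 below the adaptor TRIF, phosphorylates the interferon regulatory factors IRF3 and IRF7 and so drives type I interferon genes. In the lung, CD14 is best known from macrophages and other cells of innate defence.

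The 60-base probes that carried every value below are shown because 1 oligonucleotide stands for each gene. They are given 5′ to 3′, as in both the supplementary list and the array's own annotation.

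Cd14: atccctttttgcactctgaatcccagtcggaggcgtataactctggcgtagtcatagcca

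Ikbke: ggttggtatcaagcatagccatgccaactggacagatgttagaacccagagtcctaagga

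Both genes are protein-coding and lie on rat chromosomes 18 (Cd14) and 13 (Ikbke) in the RefSeq annotation of GRCr8. The probes held 50% and 48.3% G and C, and no other probe on the array shared a run of 20 or more bases with either of them on either strand. Each probe was printed in 10 spots per array, of which 9 to 10 were kept for Cd14 and all 10 for Ikbke. Both probes were well above background, in the scanner software's own call, on all 12 arrays, and no probe was saturated on any of them.

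The repeat spots lay close together. For Cd14 the coefficient of variation over the spots of 1 array ran from 1.86% to 5.60% (median 3.71%), and the mean raw signal was 20.0 to 225 times the local background. Ikbke was the dimmer probe, at 6.65 to 14.6 times the local background, with a coefficient of variation of 1.56% to 6.52% (median 5.10%). On the log2 scale the median SD over spots was 0.05 for Cd14 and 0.07 for Ikbke. The spread between rats of 1 group exceeded this for Cd14 in every group (SD 0.33 to 0.62, n = 3), whereas for Ikbke it ran from 0.06 among the silica rats of day 28, no more than the spots themselves, to 0.24 in the silica group of day 14 and the saline group of day 28. Levels of the 2 probes are not set against each other, because probes differ in how brightly they bind.

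**Figure D1:**
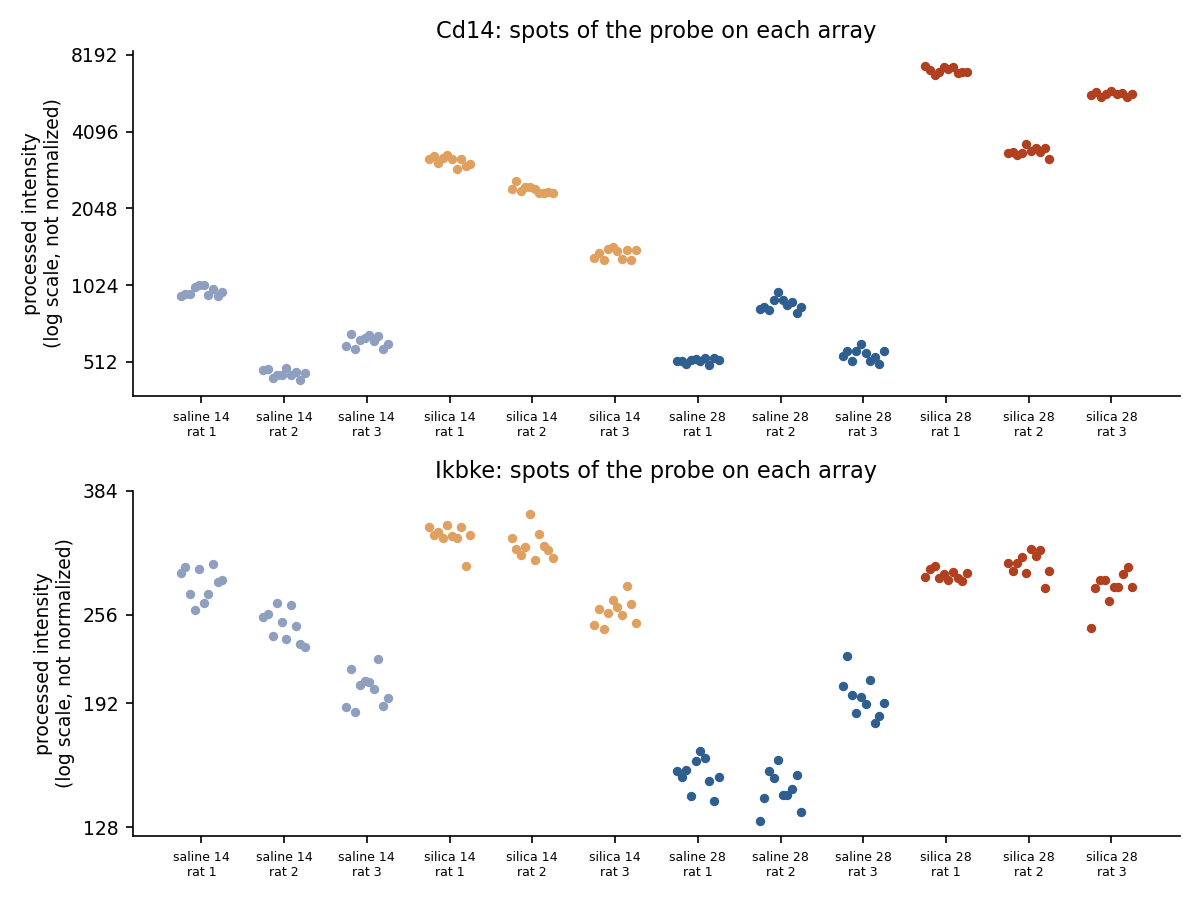
Processed intensity, before normalization and on a log axis, of every kept spot of the Cd14 probe (top) and the Ikbke probe (bottom) on each of the 12 arrays, coloured by group. The spots of 1 array form a tight cloud, from 1.86% to 5.60% coefficient of variation for Cd14 and 1.56% to 6.52% for Ikbke, and for Cd14 the silica rats lie above all saline rats.

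All levels that follow are log2 signals after quantile normalization over the 12 arrays, so a difference of 1 is a doubling. A probe was called when limma's Benjamini-Hochberg adjusted p over all 34097 probes tested was at most 0.05 and the difference was at least 2-fold. Depth in the sense of sequencing does not apply to arrays, and the 3 rats per group limit the precision. The share of probes well above background ran from 60.5% to 69.5% over the arrays, and Pearson's r over probes between rats of 1 group ran from 0.966 to 0.989. The 3 silica rats of day 28 and replicate 1 of the saline rats of day 28 shared slide 1, and the other 8 rats shared slide 2.

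Cd14 rose in silica lung on both days. On day 28 its level was 9.20, 9.52 and 8.85 in saline replicates 1 to 3 and 12.85, 11.80 and 12.63 in silica replicates 1 to 3. Every silica rat lay above every saline rat, with 2.28 log2 units between the nearest pair. The means were 9.19 ± 0.33 and 12.42 ± 0.55 (SD, n = 3), a difference of 3.24 ± 0.36 (SE), or 9.42-fold with a 95% confidence interval of 5.45 to 16.3 (limma, adjusted p = 0.000190). Only 0.293% of all probes rose more, and the position of Cd14 among the probes of an array moved from the 86.5th to 91.1st percentile in saline lung to the 98.1st to 99.1st in silica lung.

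On day 14 Cd14 stood at 9.71, 8.85 and 9.24 in the saline rats and at 11.71, 11.20 and 10.47 in the silica rats. The groups did not overlap here either, and the gap between the nearest rats was 0.76. The means were 9.27 ± 0.43 and 11.13 ± 0.62 (SD, n = 3), and the difference of 1.86 ± 0.36 (SE) was 3.63-fold, with an interval of 2.10 to 6.27 (limma, adjusted p = 0.00797). After leaving out each rat in turn the day 14 difference stayed between 1.56 and 2.18 and kept its call in all 6 fits, as did that of day 28, between 3.02 and 3.55. The day 14 call was lost in 1 of the alternatives run, the methods' t-test after Benjamini-Hochberg adjustment (adjusted p = 0.133).

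Ikbke showed smaller differences. On day 28 it was at 7.42, 6.98 and 7.37 in the saline rats and at 8.30, 8.34 and 8.22 in the silica rats. The 3 silica rats were nearly level with each other, and all lay at least 0.81 above the saline rats. The means were 7.26 ± 0.24 and 8.29 ± 0.06 (SD, n = 3), and the difference of 1.03 ± 0.16 (SE) was 2.04-fold, with an interval of 1.60 to 2.60 (limma, adjusted p = 0.00126). This value sat just past the 2-fold threshold: it was 0.89 without saline replicate 2, 0.80 after normexp background correction and 0.87 with slide as a block, each below 2-fold with an adjusted p under 0.05.

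On day 14 Ikbke was at 7.90, 7.91 and 7.64 in the saline rats and at 8.60, 8.27 and 8.12 in the silica rats. The silica rats again lay above all saline rats, now by 0.21. The means of 7.81 ± 0.15 and 8.33 ± 0.24 (SD, n = 3) differed by 0.51 ± 0.16 (SE), or 1.43-fold with an interval of 1.12 to 1.82, and the probe was not called (limma, adjusted p = 0.0515). The adjusted p lay between 0.0433 and 0.173 when each rat was left out in turn, and the difference between 0.38 and 0.62, below 2-fold in every such fit.

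For both genes on both days the exact two-sided permutation test over the 6 rats gave p = 0.1, the smallest that 3 against 3 can give. Among all probes, every silica rat lay above every saline rat for 22.6% on day 28 and 15.3% on day 14. Probes called higher made up 4.75% of those tested on day 28 and 2.87% on day 14, against which stand 2 of 2 members on day 28 and 1 of 2, Cd14, on day 14. The day 28 count is not independent evidence, since the supplementary list held only probes that the study had called on the day 28 arrays. Within that list Cd14 was among the larger rises, in place 631 counted from the smallest of the 677 named probes that were higher on day 28, and Ikbke was in place 24. The smallest named rise was 1.00, next to the threshold of the list, and the largest 6.31. The day 14 arrays had no part in that choice, and of the same 677 probes 341, or 50.4%, were called higher on day 14, with Cd14 among them and Ikbke not.

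**Figure D2:**
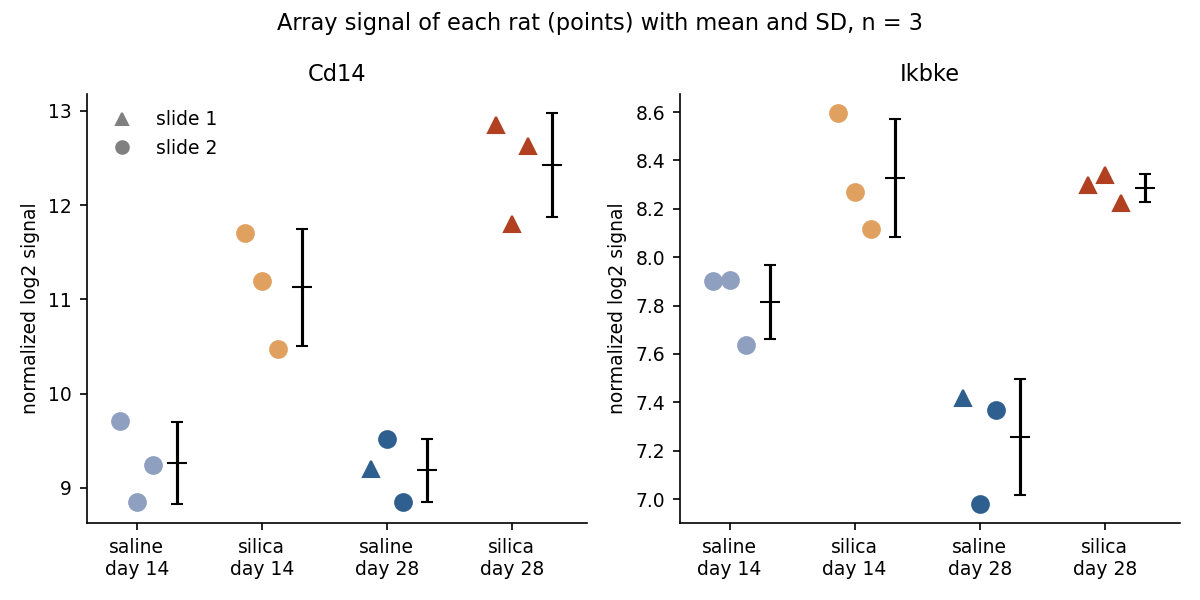
Normalized log2 signal of Cd14 (left) and Ikbke (right) in each of the 12 rats, with the mean and SD of each group of 3 in black. Triangles are arrays on slide 1 and circles those on slide 2. Cd14 climbed from about 9 in saline lung to 10.47 to 11.71 (silica, day 14) and 11.80 to 12.85 (silica, day 28), whereas the Ikbke signal was alike in both silica groups and lowest in saline lung of day 28.

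The slides touch the day 28 comparison. Within slide 1 the silica mean of Cd14 lay 3.22 above the single saline rat there, and it lay 3.24 above the 2 saline rats on slide 2, so the Cd14 difference was as large within the slide. For Ikbke the corresponding values were 0.87 and 1.11. The day 28 fit with slide as a block returned these same within-slide values, 3.22 and 0.87. It therefore rested on that single saline rat and is not a separate check. All day 14 arrays lay on slide 2, so the block could not move the day 14 differences. The slide 1 saline rat lay 0.24 above the mean of the slide 2 saline rats of day 28 for Ikbke and 0.02 for Cd14.

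The groups were also ordered by level for each gene. For Cd14 the order was saline day 28 (9.19), saline day 14 (9.27), silica day 14 (11.13) and silica day 28 (12.42). The saline groups did not differ beyond their spread, with a difference of -0.08 between day 28 and day 14 and an interval of -0.87 to 0.71 (limma, adjusted p = 0.959). The step from silica day 14 to silica day 28 was 1.30 ± 0.36 (SE), with an adjusted p of 0.0435, and 0.443% of all probes were called higher in this comparison. That call did not hold up. With slide as a block the adjusted p was 0.410, and it was 0.0707 without the filter on dim probes and 0.0782 with the 6 silica arrays fitted alone. Leaving out 1 rat at a time gave 0.97 to 1.62, and the call was lost without silica day 28 replicate 1 (1.09), silica day 28 replicate 3 (1.20), silica day 14 replicate 2 (1.33) or silica day 14 replicate 3 (0.97). Each silica group lay on a slide of its own, so day and slide can be told apart here only through the single saline rat of day 28 on slide 1.

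For Ikbke the order was saline day 28 (7.26), saline day 14 (7.81), silica day 28 (8.29) and silica day 14 (8.33). The silica groups differed by -0.04, with an interval of -0.39 to 0.31 (limma, adjusted p = 0.893). The saline rats of day 28 lay below those of day 14, all 3 below all 3, with a difference of -0.56 and an interval of -0.91 to -0.21 that did not pass the test across all probes (limma, adjusted p = 0.423). Within slide 2 alone the saline difference was -0.64. Set against the other day's saline rats, Ikbke was 0.47 higher in silica lung of day 28 than in saline lung of day 14 and 1.07 higher in silica lung of day 14 than in saline lung of day 28, so its distance from saline depended on which saline group was taken. For Cd14 the same crossed differences were 3.16 and 1.94.

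The test of whether the silica difference itself changed from day 14 to day 28 passed for neither gene. The interaction was 1.38 for Cd14, with an interval of 0.26 to 2.49 (limma, adjusted p = 0.433), and 0.52 for Ikbke, with an interval of 0.02 to 1.01 (limma, adjusted p = 0.493). No probe was called for the interaction (0% of those tested, limma), although 3387 had an unadjusted p of at most 0.05. Likewise no probe (0%) was called between the saline groups, where 3278 had such a p, and the methods' t-test at its unadjusted threshold and 2-fold called 107.

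**Figure D3:**
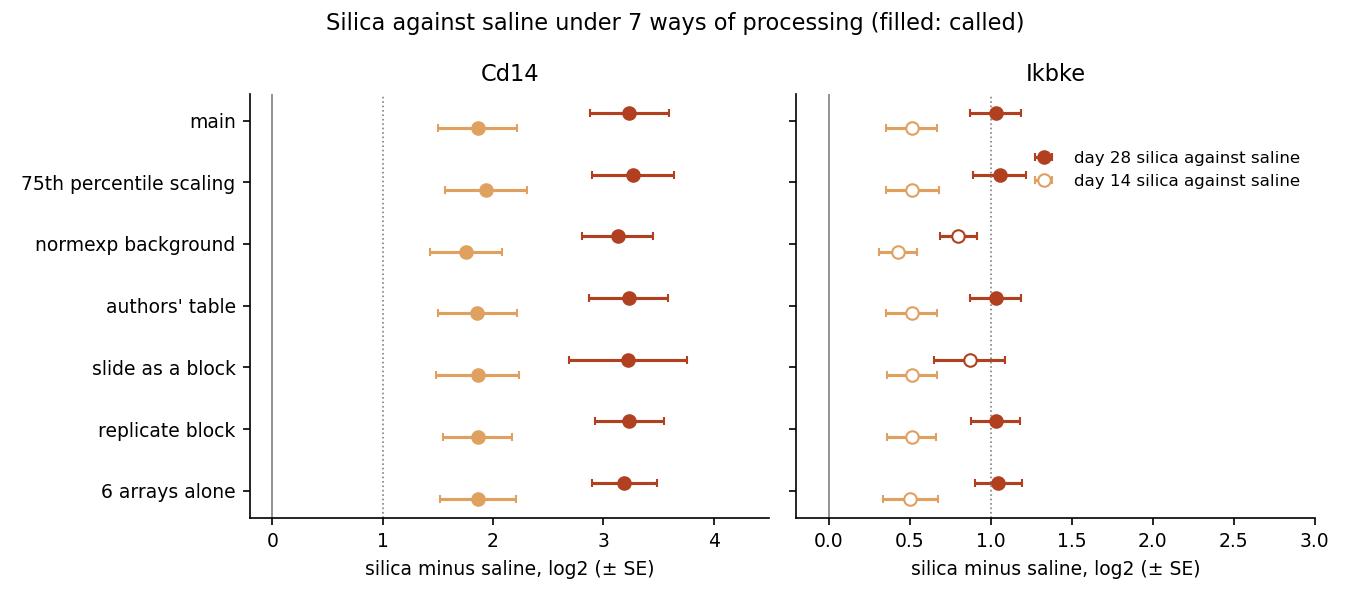
Silica minus saline difference on the log2 scale (point, with its SE as the bar) for Cd14 (left) and Ikbke (right) on day 28 and day 14 under 7 ways of processing. Filled points were called, the solid line marks 0 and the dotted line 2-fold. Cd14 was called on both days under each of those shown, whereas Ikbke passed the 2-fold line on day 28 under some and lay between 0.43 and 0.52 on day 14.

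The other genes of the pathway were taken from a list of 84 Toll-like receptor genes, of which 24, the members included, had a named probe. For the remaining 60 no name was held. All 24 passed the filter on dim probes, which asked for a signal well above background in every rat of any 1 group, and 18 were well above background on all 12 arrays. On day 28, 23 of the 24 were called higher and none lower, with a median difference of 1.65 against -0.02 over all probes. As the list of names was made from the day 28 arrays, this count says nothing independent. On day 14, 9 of 24 were called higher and none lower, 14 passed on adjusted p alone (7.07% of all probes did so in that direction), and the median was 0.87 against -0.01 over all probes. With the members left out, 21 of 22 were called higher on day 28 and 8 of 22 on day 14. Of the 677 named probes higher on day 28, 50.4% were called higher on day 14 and 71.5% passed on adjusted p alone. Their median day 14 difference was 1.07, so the list did not stand out on day 14 among the named probes. Among the 18 well above background on all 12 arrays, 17 were called on day 28 and 5 on day 14. After normexp background correction 9 of the 24 were called on day 28 and 1 on day 14. The silica rats lay above all saline rats for 24 of 24 on day 28 and 18 of 24 on day 14, against 22.6% and 15.3% of all probes. The choice of names on the day 28 arrays favours this as well, and the share among the named probes was not counted. The day 28 and day 14 medians of the 24 genes were slightly lower, at 1.55 and 0.83, when genes measured only as a bound were set at that bound. The difference was larger on day 28 than on day 14 for 24 of 24, none of which passed the interaction test. The choice of names on the day 28 arrays favours that order, which held for 617, or 91.1%, of the 677 named probes higher on day 28, so nothing is read from it.

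At the cell surface, Ly96, which encodes MD-2, the lipopolysaccharide-binding partner of TLR4, was higher in silica lung on both days. Its level was 7.38, 7.16 and 7.00 in saline and 8.87, 8.64 and 8.62 in silica lung on day 28, and 7.42, 7.18 and 7.49 against 8.93, 8.11 and 8.26 on day 14. No silica rat overlapped the saline rats of its day, and the differences were 1.53 (adjusted p = 0.000557) and 1.07 (adjusted p = 0.00730, both limma). Cd180, a receptor-like relative of TLR4 found on B cells and macrophages, rose by 1.97 on day 28 (limma, adjusted p = 0.000309) and differed by 0.61 on day 14, which did not pass (limma, adjusted p = 0.107). No named probe was held for Tlr4, and Lbp, Ly86 and Cd36 were likewise without one.

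The 4 named receptors, Tlr6 of the cell surface and Tlr7, Tlr8 and Tlr13 of the endosome, were called higher on day 28, by 1.10, 1.58, 1.33 and 1.04. On day 14 their differences were 0.49, 0.90, 0.65 and 0.48 and none was called, Tlr13 alone having an adjusted p under 0.05 (limma, 0.0386). None of the 4 adaptors (Myd88, Tirap, Ticam1 and Ticam2) had a named probe. Among the 21 kinases and ubiquitin-linked proteins, 3 were named: Ikbke, Optn, which encodes the ubiquitin-binding adaptor optineurin, and Syk, a tyrosine kinase of immune receptors. Optn was 1.24 and Syk 1.15 higher on day 28. On day 14 they were 0.79 and 0.84 higher, with adjusted p-values of 0.00543 and 0.00769 (limma), past the test though under 2-fold. Tbk1, the closest relative of Ikbke, had no named probe.

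All 4 named inhibitors were called higher on day 28. Bcl3, an atypical I-kappa-B protein, rose by 1.98 on day 28 and 1.41 on day 14 (limma, adjusted p = 0.00925). Irak3, a kinase-like protein that brakes the signal of IRAK1 and IRAK4, rose by 1.27 on day 28 and differed by 0.62 on day 14 (limma, adjusted p = 0.0494), under 2-fold. Socs1, which restrains cytokine signalling, rose by 1.10 on day 28 and differed by 0.53 on day 14 (limma, adjusted p = 0.0640). Nfkbid, a nuclear I-kappa-B protein, was not well above background on any saline array of day 28 and was at least 2.30-fold higher in silica lung on that day. The fitted day 28 difference of Nfkbid, which rests on those saline signals, had an adjusted p of 0.00578 (limma), and the bound itself was not tested. On day 14 its fitted difference was 0.17 (limma, adjusted p = 0.797), the smallest of the 24, with the probe well above background in 1 of 3 saline and 2 of 3 silica rats. Of the transcription factors, Irf5, which acts below the endosomal receptors, rose by 2.14 and 1.13 on days 28 and 14, and Irf8, a factor of the myeloid lineage, rose by 1.52 on day 28 and differed by 0.68 on day 14 (limma, adjusted p = 0.205).

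The list entered 18 genes as targets of the pathway, a role taken from the list and not tested here, and 8 of them were named. Of these 8, 4 genes, Ccl4, Cxcl9, Nos2 and Tnf, passed the well-above-background call in all 12 rats. Among those 4, 3 were called higher on day 28 and 2 on day 14, where 4.75% and 2.87% of all probes were. Their names also came from the day 28 arrays. Of the named probes higher on day 28, 50.4% were called higher on day 14, so nothing is read from these counts. Tnf, the inflammatory cytokine, was at 5.37, 5.74 and 5.30 in saline lung and 7.35, 7.15 and 7.49 in silica lung on day 28. On day 14 it was at 5.45, 5.21 and 5.51 against 6.80, 6.89 and 7.27. The silica rats stood clear of the saline rats on both days, with differences of 1.86 (adjusted p = 6.95e-05) and 1.59 (adjusted p = 0.000404, both limma). Nos2, the inducible nitric oxide synthase, rose by 1.95 and 1.14. The probes of Ccl3, Ctsk and Il12b were not well above background on any saline array, so only bounds apply to them, and they passed the filter on dim probes through the silica groups. They were at least 3.73-fold, 2.42-fold and 3.80-fold higher on day 28 and at least 2.47-fold, 2.37-fold and 1.95-fold higher on day 14. Each bound sets the silica mean against the dimmest signals that the saline arrays could measure. Cxcl10, an interferon-inducible chemokine, was at least 4.68-fold higher on day 28 and was well above background in 1 of 3 silica rats on day 14. Cxcl9, its close relative, was not called on either day: its differences were 1.65 and 1.64 (limma, adjusted p = 0.123 and 0.168), and on day 14 silica replicate 1 stood at 11.74 while the other silica rats were at 8.20 and 8.15.

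Interferon-stimulated genes, which lie downstream of the kinase that Ikbke encodes, were counted as a list of their own, with 5 of 20 named. Dhx58, Epsti1, Ifit2, Oas3 and Usp18 were called higher on day 28, by 1.06 to 2.10, again on the arrays from which the names were chosen. None was called on day 14, where the median difference was 0.19 and Ifit2 was at -0.38 (limma, adjusted p = 0.313). All 5 were lower in saline lung of day 28 than of day 14, with a median of -0.50 and none called. Between the silica groups the median was 0.85, with 1 of 5 called higher where 0.443% of all probes were. Their distance from saline on day 28 therefore took in a lower saline level as well.

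**Figure D4:**
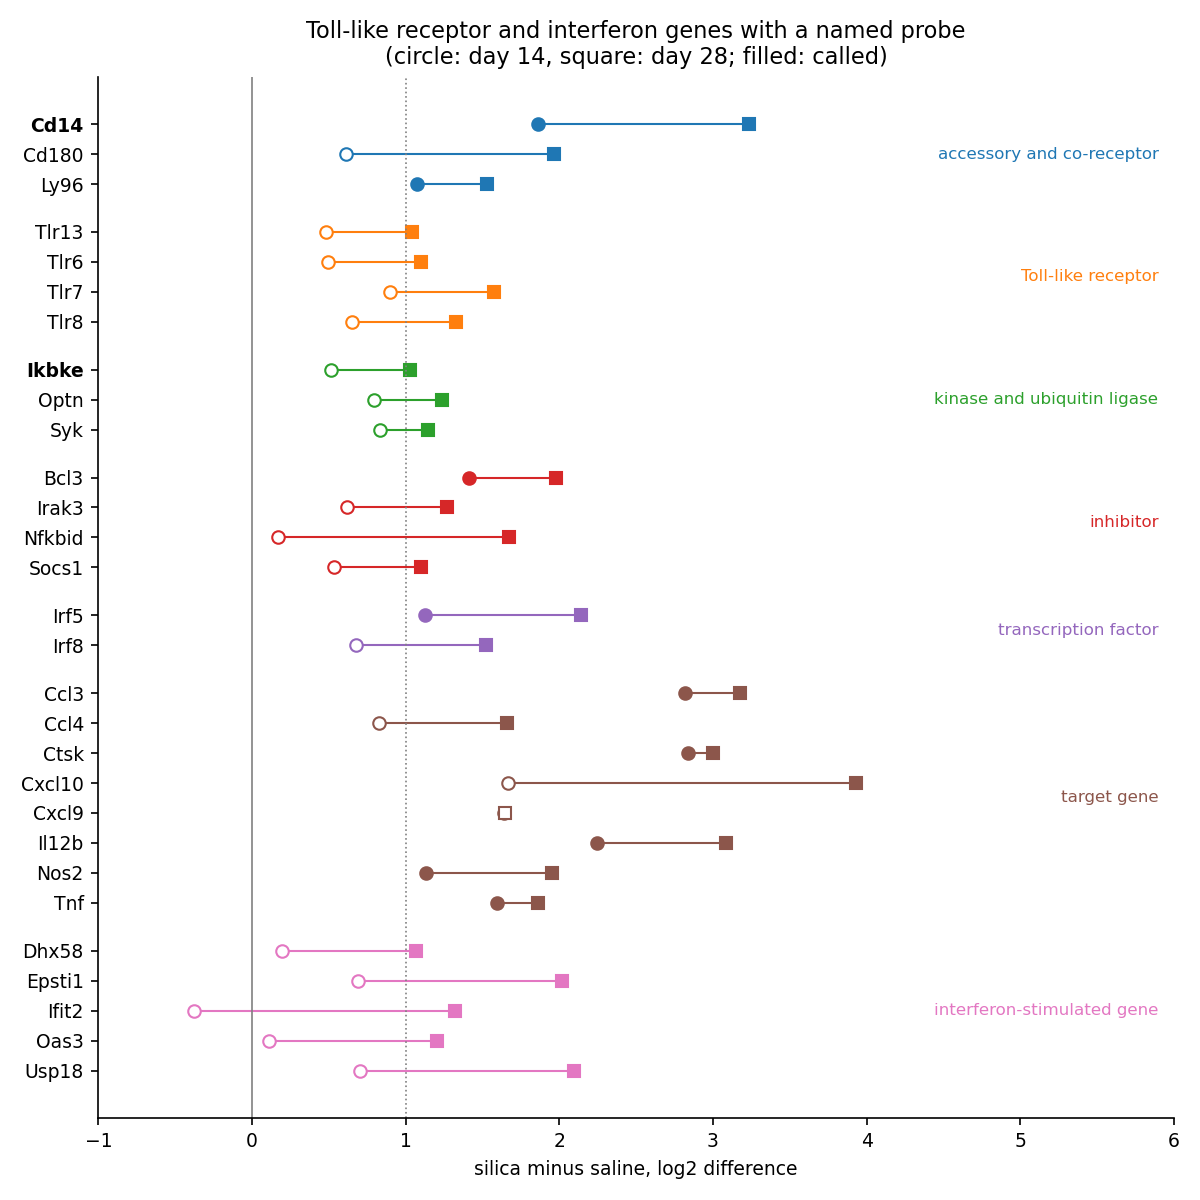
Silica minus saline differences on the log2 scale of the 24 named Toll-like receptor genes and 5 interferon-stimulated genes, grouped by role, with circles for day 14, squares for day 28 and filled symbols for called probes. Squares lie to the right of circles in 24 of 24 Toll-like receptor genes, an order that choosing the names on the day 28 arrays favours and that 91.1% of the named probes higher on day 28 share. Cd14 has the largest day 28 difference outside the target genes, at 3.24, and Ikbke is near the dotted 2-fold line at 1.03 on day 28 and 0.51 on day 14. Points of Ccl3, Ctsk, Cxcl10, Il12b and Nfkbid are fitted values that rest on saline signals not well above background.

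In whole lung, more cells of a type and more RNA per cell cannot be told apart. Most named markers of immune cells were, like Cd14 and Ikbke, higher in silica lung. The named markers, too, came from the probes called on the day 28 arrays, so their day 28 counts are not independent evidence. The counts called higher stand against 4.75% of all probes on day 28 and 2.87% on day 14. Of the named probes higher on day 28, 50.4% were called higher on day 14. Of those lower on day 28, 45.1% were called lower on day 14. Day 14 counts near these shares say nothing particular about a cell type. Of 14 macrophage markers 8 were named, and 8 were called higher on day 28 and 7 on day 14. Their summed linear signal ran from 4564 to 6436 in saline and 22131 to 34254 in silica lung on day 14, and from 5481 to 5799 against 34082 to 38469 on day 28. The median macrophage difference was 2.85 on day 14 and 2.91 on day 28, against 1.86 and 3.24 for Cd14. Single macrophage markers ran from 0.90 to 4.25 on day 14 and from 1.25 to 4.12 on day 28, so Cd14 lay inside their range on both days. Of 10 neutrophil markers 4 were named and 4 were called higher on both days, with sums of 2144 to 3175 against 34277 to 80336 on day 14 and 2601 to 5186 against 64062 to 74727 on day 28. The median neutrophil difference was 2.07 on day 14 (range 1.08 to 4.30) and 2.63 on day 28 (range 1.57 to 4.32). Sums of linear signal give the brightest probes the most weight, so they do not stand for each marker. Of 7 monocyte markers 3 were named, with 3 called on day 28 and 1 on day 14 and sums of 936 to 1162 and 1739 to 2517 on day 14 and 1020 to 1109 and 3154 to 3327 on day 28. Over the same rats, 10 of 12 endothelial markers were named, and 10 were called lower on day 28 and 6 on day 14, where 5% and 2.78% of all probes were called lower. The alveolar epithelial markers Aqp5, Clic5 and Rtkn2 were well above background on all 12 arrays, a check of the lung label, and 3 of 3 were called lower on day 28 and 2 on day 14, with sums of 9277 to 11817 against 2777 to 7049 on day 14 and 12066 to 13783 against 3344 to 6696 on day 28. T and NK cell markers gave 3 calls higher of 3 named on day 28 and 2 on day 14, B and plasma cell markers 2 of 3 on both days with 1 called lower on day 14, fibroblast markers 3 and 1 of 3, and airway epithelial markers 3 and 0 called lower of 3. The part of these markers in the Cd14 and Ikbke differences was not tested.

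The 3 silica rats of day 14 did not stand alike. Replicate 1 was the highest of the 3 for 19 of the 24 Toll-like receptor genes, Cd14 and Ikbke included. Without it, the day 14 difference was 1.56 for Cd14 (limma, adjusted p = 0.0288) and 0.38 for Ikbke (limma, adjusted p = 0.173), and 5 instead of 9 genes of the list were called. Over all probes 1113 instead of 1926 were then called on day 14, so the drop was not confined to the list. How often replicate 1 was the highest among all probes was not counted.

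The genes whose patterns over the 12 arrays were most like each member were found among the 1097 other named genes, by the root mean square of the difference between log2 signals after each gene's mean was subtracted. For Cd14 they were Atf3, a stress-induced transcription factor (0.351), Hmox1, the inducible haem oxygenase (0.359), Aldh1l2, a mitochondrial folate enzyme (0.366), Bcat1, a branched-chain amino acid transaminase (0.379), and Capg, an actin-capping protein of macrophages (0.379). The median over all genes compared was 1.11. For Ikbke they were Socs1 (0.125), Ggn (0.211), Irak3 (0.213), LOC102552784, an uncharacterised locus (0.221), and Cdca2, a protein of the dividing nucleus (0.223), against a median of 0.932. The measure is small for genes that vary little, as Ikbke does, so the 2 sets of values are not comparable with each other. Of the 1278 named probes tested, 601 were lower on day 28, so both medians take in genes that moved the other way. Some neighbours were dim: over the 4 groups Ggn averaged 3.57 to 4.67 and Cdca2 4.17 to 5.28. Aldh1l2 averaged 4.30 and 4.63 in saline lung of days 14 and 28. Cd14 and Ikbke lay 1.10 apart, which placed Ikbke 547th among the neighbours of Cd14 and Cd14 807th among those of Ikbke.

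The profile of Socs1 followed that of Ikbke through all 4 groups. Socs1 averaged 6.60 in saline day 28, 7.13 in saline day 14, 7.66 in silica day 14 and 7.70 in silica day 28, where Ikbke averaged 7.26, 7.81, 8.33 and 8.29. Both were lower in saline lung of day 28 than of day 14, and both were level between the silica groups. Irak3, from the same list of inhibitors, averaged 6.22, 6.66, 7.28 and 7.49 in that order. The lower level in saline lung of day 28 was not particular to these genes. Between the saline groups 5 of the 24 Toll-like receptor genes had a difference above 0, and the median was -0.30. For the 4 named inhibitors the median was -0.49, with 0 above 0. No gene of the list was called in that comparison. As the points share arrays and normalization, these likenesses are descriptions.

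**Figure D5:**
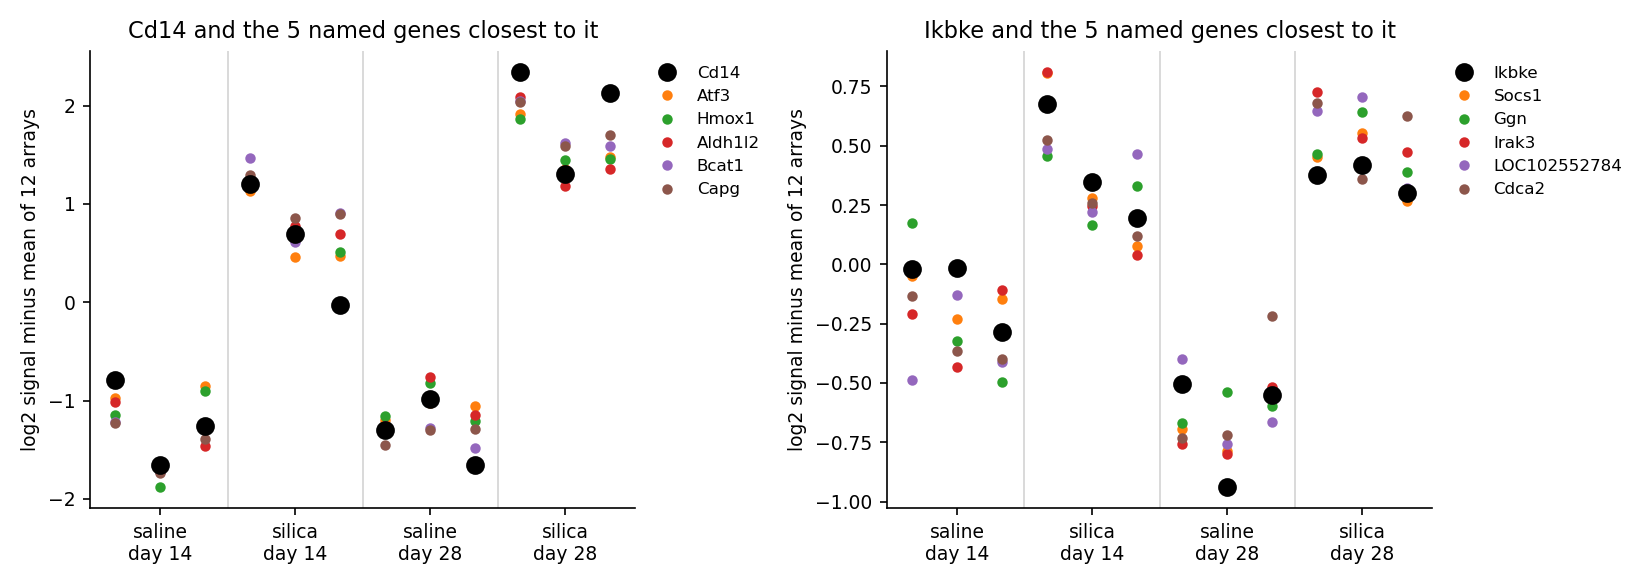
Log2 signal minus the gene's mean over the 12 arrays for Cd14 (left, black) with the 5 named genes closest to it, and for Ikbke (right, black) with its 5 closest, each point a rat in the order of replicates 1 to 3 within a group. Over the 12 arrays Socs1 differs from Ikbke by a root mean square of 0.125 and Atf3 from Cd14 by 0.351, and single rats can differ by more. In silica day 14 replicate 3, Cd14 lies below its neighbours.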

How the data were processed

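Total RNA of 12 rat lungs was measured on Agilent single-colour arrays. The authors scanned them with Feature Extraction 10.7.1.1 (submitters' processing notes), and the deposited values are processed intensity per spot, background-subtracted by that software. The deposited series table holds log2 values that the authors normalized, and it was used only as an alternative. Spots flagged as outliers (unless all of a probe's were) and controls were dropped, log2 intensity was averaged over the spots of a probe, and the arrays were quantile normalized together. A probe was kept if the scanner software called it well above background in every rat of any 1 group (34097 of 51255). limma 3.58.1 in R 4.3.3 fitted 4 group means (8 residual degrees of freedom), with Benjamini-Hochberg adjustment over all probes. The fit was tested on simulated data.

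Gene names came from the study's supplementary list of probes, of which 1279 rows were held and 996 not. All 1279 probes had the same sequence on the array, and 1050 accessions were found in RefSeq GRCr8. For the 158 symbols with more than 1 probe, the probe with the highest mean was used. The members and the gene lists were chosen with earlier results of these data known. Named genes were both members, all list genes with a named probe, and the 5 genes closest to each member. Alternatives were another scaling, normexp background correction (offset 50), the authors' table, other filters on dim probes, slide or replicate number as a block, the methods' t-test, the 6 arrays of a comparison alone, and each rat left out. Same-numbered rats of different groups did not deviate together (correlation -0.24 to 0.24, median -0.01), so the numbers were not taken as pairs.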

Additional observations from a re-analysis of the deposited data

How the results depend on the processing

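The Cd14 differences on days 28 and 14, the uncalled Ikbke difference on day 14 and both interactions kept their direction and their side of the threshold under the alternatives run, except that Cd14 on day 14 (1.86) missed the methods' t-test after Benjamini-Hochberg adjustment (0.133). Ikbke on day 28 fell below 2-fold after normexp (0.80) and with slide as a block (0.87), and ranged from 0.89 to 1.11 with 1 rat left out. The Cd14 step between silica groups lost its call without the dim-probe filter (1.30), with slide as a block (1.28), in the methods' t-test with or without adjustment (1.30) and in the 6 arrays alone (1.33), and ranged from 0.97 to 1.62 with 1 rat left out. The cause was not tested.

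The Toll-like receptor list, recounted under alternatives chosen after seeing the data, gave 9 calls on day 28 and 1 on day 14 after normexp, 5 on day 14 among probes well above background on all 12 arrays (fewer were tested), 0 on day 14 in the adjusted t-test (9 unadjusted), and with 1 rat left out 20 to 23 on day 28 and 5 to 9 on day 14. With slide as a block it gave 17 on day 28.

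Over all probes the counts called were 3322 (day 28), 1926 (day 14), 0 (interaction), 969 (silica groups) and 0 (saline groups). In that order normexp gave 1314, 734, 1, 287 and 0. The adjusted t-test gave 2096 (day 28), 1 (day 14) and 140 (silica groups), and the unadjusted t-test 107 (saline groups). Slide as a block gave 4 for the interaction, 4 for the silica groups and 2 for the saline groups. The interaction gave 1 without the dim-probe filter and 1 among probes well above background on all 12 arrays, where the silica groups gave 587. With 1 rat left out the ranges were 2528 to 3709 (day 28), 1113 to 2582 (day 14, lowest without silica replicate 1), 0 to 271 (interaction, highest without saline day 28 replicate 1), 199 to 1142 (silica groups) and 0 to 4 (saline groups). With the replicate block the counts were 3304, 1950, 0, 785 and 0, and no call of Cd14 or Ikbke changed.

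The Ikbke probe was the dimmer, at 6.65 to 14.6 times the local background, and 3 rats per group limit the precision.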
